A study of Mus musculus with 12 samples.

Results

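The alcohol dehydrogenases (Adh), aldehyde dehydrogenases (Aldh) and aldo-keto reductases (Akr) were measured on arrays of liver from wild-type (WT) mice and mice without Iqgap2 (knockout, KO). Members were all genes whose symbol starts with Adh, Aldh or Akr followed directly by a digit and that a probe set names alone. Where several probe sets name a gene, the brightest on average over the 12 arrays was taken. This gave 42 members of 18194 genes, of which 7 are Adh, 20 Aldh and 15 Akr genes. In all, 71 probe sets name a member alone, 17 members have several of them, and 1 member, Adh6-ps1, is annotated as a pseudogene. A further 3 probe sets name several genes of which at least 1 is of these families, and they were left out.

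Each group held 3 male mice, 1 array per mouse. The first group was hepatic tumors of KO mice at 24 months (KO 24 months tumor). The others were normal liver of KO mice at 6 months (KO 6 months), of WT mice at 24 months (WT 24 months) and of WT mice at 6 months (WT 6 months). All mice were kept on the 129J background and fed a regular diet, and the KO is a deletion of Iqgap2 in all cells and not in hepatocytes alone. No normal liver of KO mice at 24 months is among the groups, so that tumor and normal tissue cannot be told apart from genotype at that age. Values are log2 intensities after robust multi-array averaging (RMA), in which 1 unit is a doubling.

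These 3 families handle alcohols and aldehydes with the cofactors NAD or NADP. In the liver, alcohol dehydrogenases turn ethanol into acetaldehyde and retinol into retinal, and aldehyde dehydrogenases oxidize the aldehydes to acids such as acetate and retinoic acid. Aldehyde dehydrogenases also finish the breakdown of several amino acids and of fatty alcohols. Aldo-keto reductases run the other way and reduce aldehydes and ketones, steroids and bile acid precursors included. Liver expresses many members of all 3 families at high levels.

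The deleted gene goes against the labels of 6 arrays. Iqgap2, a scaffold protein of the cytoskeleton, read 12.15, 12.05 and 12.15 in the arrays labelled KO 24 months tumor and 8.12, 8.68 and 8.07 in those labelled KO 6 months. The values under the label WT 24 months were 12.28, 12.30 and 11.92, and those under WT 6 months were 8.38, 8.24 and 8.33. The gene was thus high in a group labelled KO and low in a group labelled WT. A second Iqgap2 probe set split the groups in the same way, with means of 8.82 in KO 24 months tumor, 7.36 in KO 6 months, 8.81 in WT 24 months and 7.72 in WT 6 months. Where the deleted part of the gene lies relative to these probe sets is not given in the sources used here. The labels are kept, every group name below means the arrays so labelled, and every direction that involves these 6 arrays depends on them. With the labels exchanged, the comparison of KO 24 months tumor with WT 6 months turns its sign, and the comparison of KO 6 months with WT 24 months is untouched.

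The arrays labelled WT 6 months correlated least with those of the other groups. Across all probe sets the WT 6 months arrays correlated with the other groups at 0.960 to 0.972, while arrays correlated within their groups at 0.976 to 0.994. KO 24 months tumor and WT 24 months correlated at 0.969 to 0.991, which overlaps the first range. KO 6 months correlated with WT 24 months at 0.973 to 0.991 and with KO 24 months tumor at 0.987 to 0.994. WT 24 months was the most scattered group, with a median SD over members of 0.21, against 0.09 in KO 24 months tumor, 0.14 in KO 6 months and 0.13 in WT 6 months. WT 24 months replicate 3 had a mean of 12.13 over 6 Kupffer cell markers, against 7.86 to 9.52 in the other 11 arrays. The 5 hepatocyte markers averaged 13.90 to 14.12 in KO 24 months tumor, 14.14 to 14.23 in KO 6 months, 14.32 to 14.52 in WT 24 months and 14.02 to 14.22 in WT 6 months, so that all groups read as liver. In whole tissue, fewer cells of a type and less RNA per cell cannot be told apart.

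Members differed between groups mainly where the arrays labelled WT 6 months were on one side. Of the 42 members, 14 passed an adjusted p of 0.05 (limma, Benjamini-Hochberg over all 18194 genes) in at least 1 of the 6 pairs of groups, and all 14 passed against WT 6 months. In KO 24 months tumor against WT 6 months, 10 members rose and 2 fell, where 10.7% of all genes were higher and 8.99% lower. In KO 6 months against WT 6 months, 8 members rose and 2 fell, against 9% of all genes higher and 8.04% lower. In WT 24 months against WT 6 months, 3 members rose and 4 fell, against 6.22% and 7.07% of all genes. These counts depended on single arrays and on the scaling. Without WT 24 months replicate 3, the array with high Kupffer cell markers, 6 members were higher and 3 lower in WT 24 months than in WT 6 months. Without KO 24 months tumor replicate 1, 6 were higher and 2 lower in KO 24 months tumor than in WT 6 months. With arrays centred on 4 housekeeping genes, 3 were higher and 2 lower in KO 24 months tumor, 2 higher and 2 lower in KO 6 months, and 1 higher and 4 lower in WT 24 months, against WT 6 months, so that the excess of higher members was not seen under that scaling. By the RMA values as deposited the Aldh class held most of the members that rose: 7 of its 20 genes were higher and 1 lower in KO 6 months than in WT 6 months, while no Adh gene and 2 of 15 Akr genes passed there.

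The median log2 difference over the members was small in each of these comparisons. It was 0.08 for KO 24 months tumor against WT 6 months, 0.06 for KO 6 months against WT 6 months and -0.01 for WT 24 months against WT 6 months, beside 0.05, 0.05 and 0.01 over all genes. The families as a whole lay near the other genes, and the calls came from single enzymes of both signs. With the housekeeping centring the first 2 medians turned to -0.055 and -0.0378, and those 4 genes were themselves 0.135 and 0.102 higher on the log2 scale in KO 24 months tumor and KO 6 months than in WT 6 months.

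Groups were also compared by overlap of single arrays. For 8 of 42 members all 3 WT 6 months arrays lay outside the range of the 9 other arrays, a pattern that 15.1% of all genes showed. Adh1, Akr1c20, Akr1c6 and Aldh3a2 were above all other arrays there, and Aldh1a3, Aldh1b1, Aldh1l1 and Aldh8a1 below. The same held for 1 member in KO 24 months tumor (Aldh7a1, above), where 3.4% of all genes stood apart. It held for 0 members in KO 6 months (2.09% of all genes) and for 3 in WT 24 months (Akr1c6, Aldh1l2 and Aldh3a2, all below), where 2.49% of all genes stood apart.

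**Figure D1:**
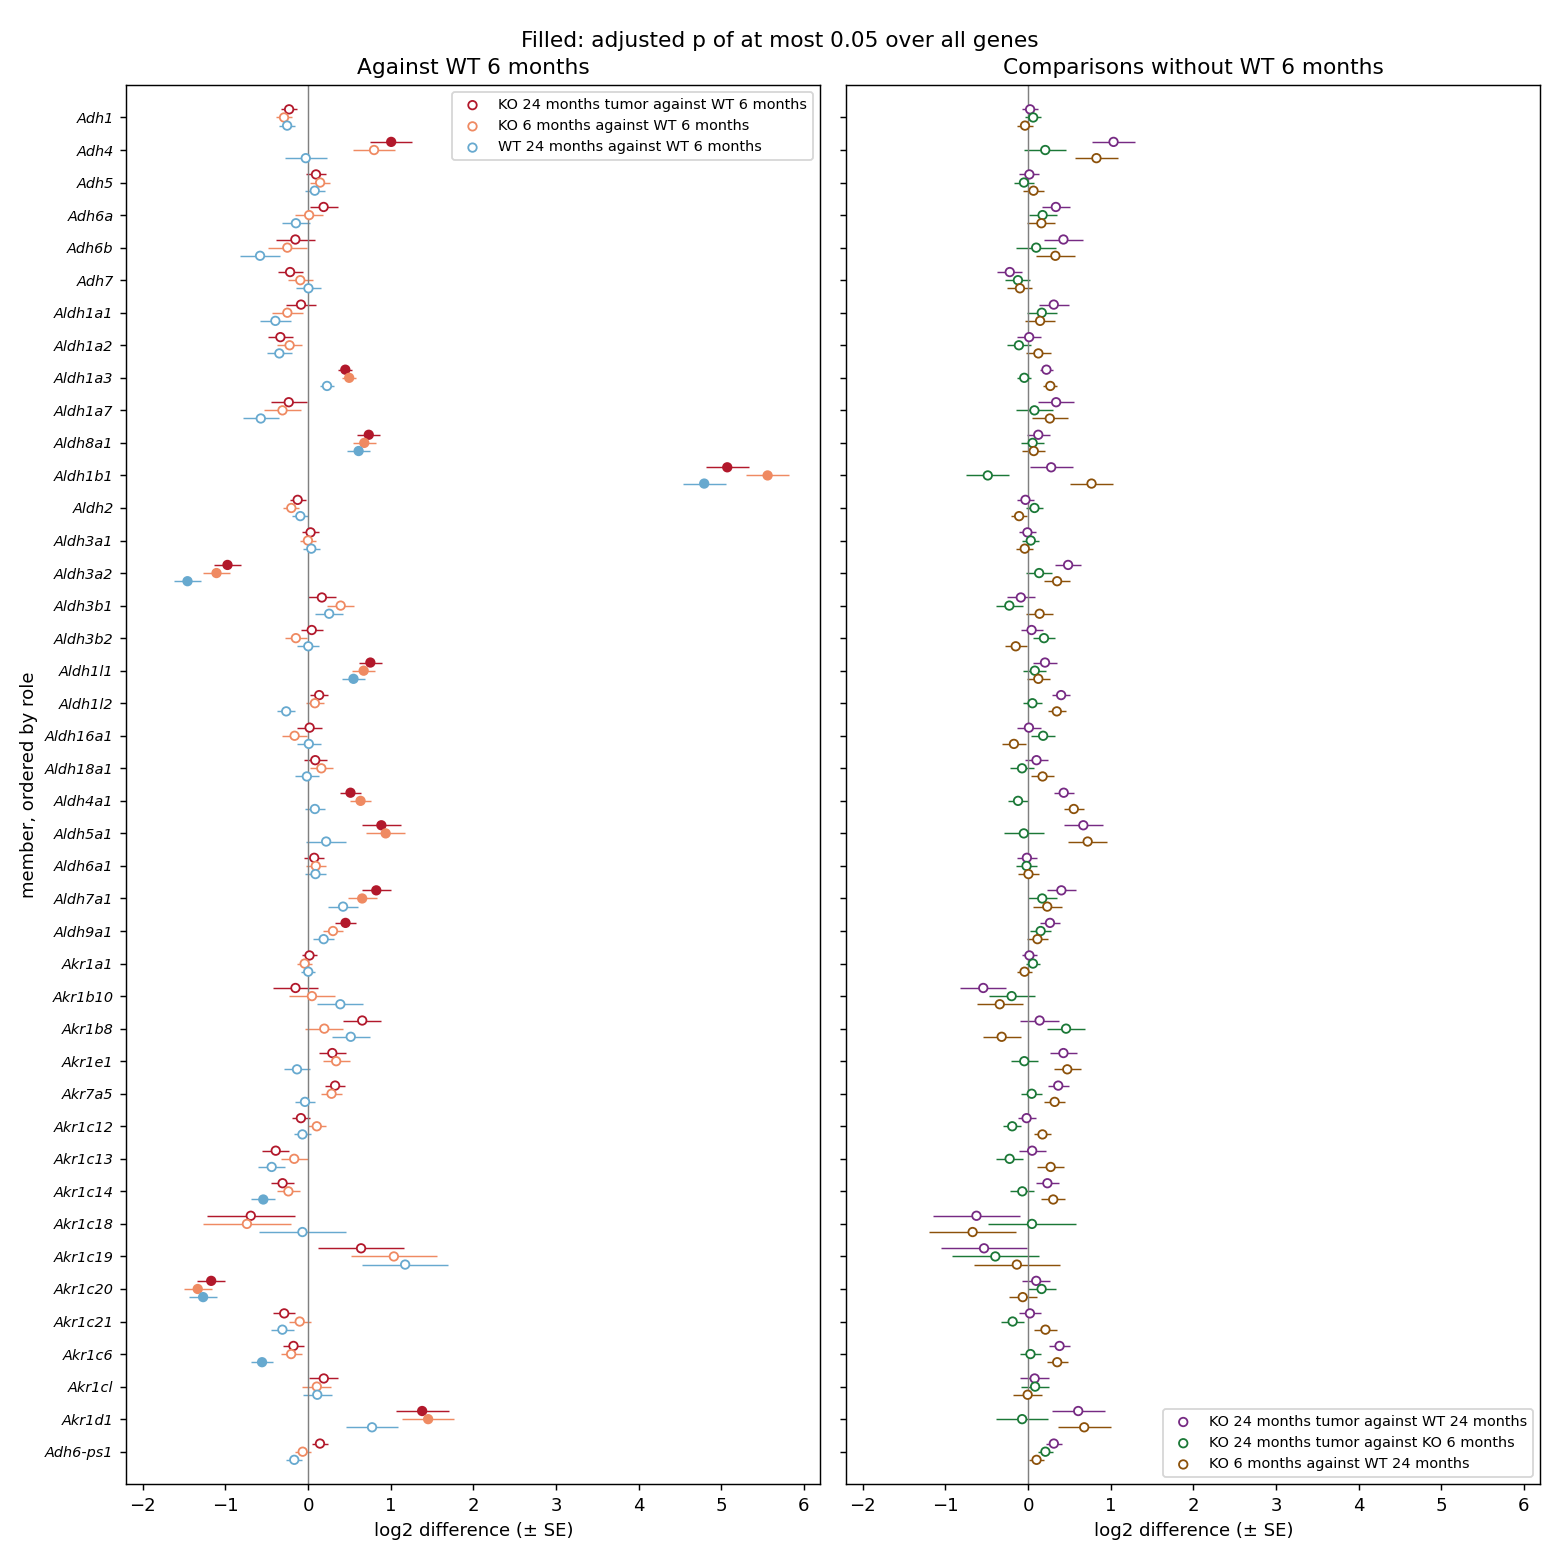
Log2 difference (± SE) of each of the 42 members, in the comparisons with WT 6 months (left) and in those without it (right). Filled points passed an adjusted p of 0.05 over all genes. In the left panel Aldh1b1 lies near 5 and Aldh3a2 and Akr1c20 near -1 in all 3 comparisons, and no point in the right panel is filled.

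Aldh1b1, a mitochondrial enzyme that oxidizes acetaldehyde and retinal, showed by far the widest range, 6.40 log2 units over the 12 arrays. It read 9.92, 9.54 and 9.89 in KO 24 months tumor, 9.66, 10.77 and 10.39 in KO 6 months, 9.71, 9.45 and 9.36 in WT 24 months, and 4.70, 5.07 and 4.37 in WT 6 months. The 3 WT 6 months values lay below the median of their arrays, 5.41 to 5.45 over all probe sets, and no other array came near them. Against WT 6 months the gene was 33.6-fold higher in KO 24 months tumor (log2 difference 5.07, SE 0.26, adjusted p = 5.23e-07), 47.2-fold higher in KO 6 months (5.56, adjusted p = 2.52e-07) and 27.7-fold higher in WT 24 months (4.79, adjusted p = 9.75e-07). Whether the WT 6 months signal was above background is not known. If it was not, these folds are lower bounds. Among the other 3 groups it did not pass, with a log2 difference of 0.28 between KO 24 months tumor and WT 24 months (adjusted p = 0.613), -0.49 between KO 24 months tumor and KO 6 months (0.858) and 0.77 between KO 6 months and WT 24 months (0.202). With the labels exchanged, the group with low Aldh1b1 is KO 24 months tumor.

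Aldh2, the main mitochondrial acetaldehyde dehydrogenase, did not share this pattern. It ranged over 13.23 to 13.64 on its brightest probe set, a span of 0.41, and its differences from WT 6 months were -0.13 in KO 24 months tumor, -0.20 in KO 6 months and -0.09 in WT 24 months, none of which passed.

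**Figure D2:**
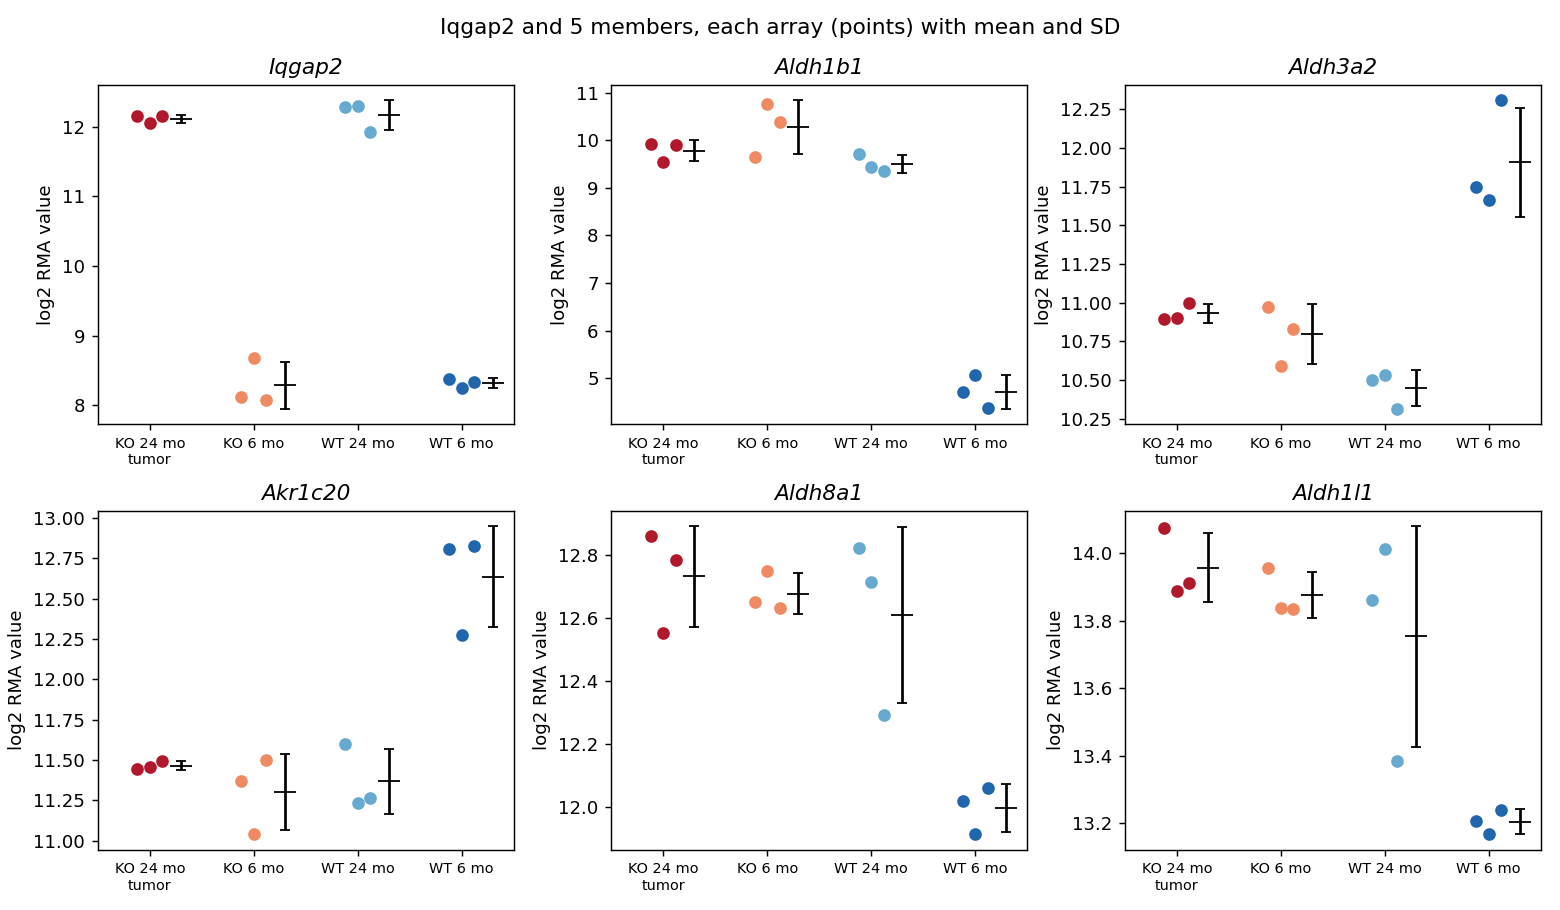
Log2 RMA values of Iqgap2 and of the 5 members that passed in all 3 comparisons with WT 6 months by limma over all arrays. Points are single arrays, and bars are the mean and SD of 3 arrays. The WT 6 months points of Aldh1b1 sit between 4.37 and 5.07, below all other arrays, and Iqgap2 is high in KO 24 months tumor and WT 24 months.

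By limma over all arrays, 5 members passed in all 3 comparisons with WT 6 months. The promoters of 4 of them are shown next, as the windows in which shared motifs could be looked for. Each runs from 250 bases before to 50 bases after the RefSeq start, 5′ to 3′ on the gene's strand, from the reference build GRCm38.p6, which is of another mouse strain. Capitals mark the motifs named below.
Aldh1b1: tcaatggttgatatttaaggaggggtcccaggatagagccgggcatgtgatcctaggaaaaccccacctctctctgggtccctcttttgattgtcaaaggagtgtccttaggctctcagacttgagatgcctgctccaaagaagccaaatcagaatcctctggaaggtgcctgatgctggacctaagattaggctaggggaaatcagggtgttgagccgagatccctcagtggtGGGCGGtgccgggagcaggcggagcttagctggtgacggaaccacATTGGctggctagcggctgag
Aldh3a2: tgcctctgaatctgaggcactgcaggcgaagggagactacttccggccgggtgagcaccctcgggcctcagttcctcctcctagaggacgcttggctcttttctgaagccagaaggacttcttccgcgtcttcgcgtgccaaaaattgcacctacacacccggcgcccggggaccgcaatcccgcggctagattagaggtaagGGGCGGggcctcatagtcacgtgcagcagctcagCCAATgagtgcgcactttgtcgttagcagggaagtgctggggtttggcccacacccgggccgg
Aldh8a1: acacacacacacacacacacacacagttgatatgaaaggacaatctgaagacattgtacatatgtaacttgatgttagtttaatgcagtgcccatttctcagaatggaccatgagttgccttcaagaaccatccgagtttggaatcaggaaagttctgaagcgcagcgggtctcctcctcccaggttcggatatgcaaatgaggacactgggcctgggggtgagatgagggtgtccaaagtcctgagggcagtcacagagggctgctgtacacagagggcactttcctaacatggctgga
Aldh1l1: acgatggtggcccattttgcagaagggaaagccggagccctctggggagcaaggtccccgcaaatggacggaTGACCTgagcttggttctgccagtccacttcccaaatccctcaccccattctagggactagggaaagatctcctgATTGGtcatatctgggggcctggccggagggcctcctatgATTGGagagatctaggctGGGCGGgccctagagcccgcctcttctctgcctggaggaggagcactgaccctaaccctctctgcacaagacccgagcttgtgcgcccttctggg

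Aldh1b1 lies at chr4:45798772-45799071 on the plus strand, Aldh3a2 at chr11:61267137-61267436 on the minus strand, Aldh8a1 at chr10:21377050-21377349 on the plus strand and Aldh1l1 at chr6:90550543-90550842 on the plus strand. Motifs were searched on both strands as letters, and AGGTCA, the nuclear receptor half-site, was found in 16.3% of 32851 promoters of this length and in 8 of 36 promoters of 33 members. The TCF/LEF core CTTTGAT was in 3.73% of all promoters and in 1 of the 36, and CTTTGAA in 5.14% and 2 of 36. The antioxidant response element TGACNNNGC was in 12.4% and 5 of 36, TATAAA in 13.6% and 6 of 36, CCAAT in 37.4% and 19 of 36, and GGGCGG in 35.7% and 11 of 36. Aldh1b1 and Aldh3a2 each held 1 CCAAT and 1 GGGCGG, Aldh1l1 held both and AGGTCA, and Aldh8a1 held none of the 7 motifs. No motif was common to the 4 windows.

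Of the fatty aldehyde dehydrogenases, Aldh3a2 fell in all 3 groups relative to WT 6 months. Aldh3a2 is the membrane-bound enzyme of fatty aldehyde breakdown, and its loss causes Sjögren-Larsson syndrome in humans. It read 10.90, 10.90 and 11.00 in KO 24 months tumor, 10.98, 10.59 and 10.83 in KO 6 months, 10.50, 10.53 and 10.32 in WT 24 months, and 11.75, 11.67 and 12.31 in WT 6 months. The WT 6 months arrays lay above all others, and the WT 24 months arrays below all others. The log2 differences from WT 6 months were -0.98 (SE 0.16, adjusted p = 0.00166) in KO 24 months tumor, -1.11 (0.000839) in KO 6 months and -1.46 (0.000159) in WT 24 months. Aldh3a1, Aldh3b1 and Aldh3b2, the other enzymes of this class, passed in none by limma over all arrays. Their arrays ranged over 3.37 to 3.64, 5.86 to 6.56 and 5.10 to 5.60. Without WT 24 months replicate 3, Aldh3b1 was higher in KO 6 months than in WT 6 months (0.39, adjusted p = 0.0485). It also passed there by SAM (0.0131) and in a fit of the 2 groups alone (0.045). SAM is the test that the study's methods name, used here without their fold cutoff of 3.

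Among the retinal dehydrogenases, Aldh8a1 and Aldh1a3 rose relative to WT 6 months and the rest did not pass by limma over all arrays. Aldh8a1, which was first named for retinal oxidation and also acts in tryptophan breakdown, read 12.86, 12.55 and 12.79 in KO 24 months tumor, 12.65, 12.75 and 12.63 in KO 6 months, 12.82, 12.72 and 12.29 in WT 24 months, and 12.02, 11.91 and 12.06 in WT 6 months. All WT 6 months arrays were below the others, and the log2 differences from them were 0.73 (adjusted p = 0.00341), 0.68 (0.00585) and 0.61 (0.0124) for KO 24 months tumor, KO 6 months and WT 24 months. Its second probe set moved the same way, with log2 differences of 0.84, 0.98 and 0.47. The call of Aldh8a1 in WT 24 months was lost by SAM, in a fit of the 2 groups alone and with the housekeeping centring.

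Aldh1a3, the retinal dehydrogenase of sensory and epithelial tissues, was dim. It read 5.27, 5.18 and 5.16 in KO 24 months tumor, 5.28, 5.21 and 5.27 in KO 6 months, 4.95, 5.05 and 4.94 in WT 24 months, and 4.71, 4.71 and 4.84 in WT 6 months. It was the only one of 14 members at or below the median of all genes that passed, with log2 differences of 0.45 (adjusted p = 0.00331) in KO 24 months tumor and 0.50 (0.00204) in KO 6 months against WT 6 months. Its 2 other probe sets differed by 0.17 and 0.07 between KO 24 months tumor and WT 6 months. Aldh1a1 and Aldh1a7, nearly identical neighbours that the arrays may not tell apart, ranged over 13.13 to 14.10 and 12.15 to 13.39, and Aldh1a2 over 3.83 to 4.52. None of these 3 passed by limma over all arrays. By SAM, Aldh1a7 was lower in KO 6 months than in WT 6 months (-0.31, adjusted p = 0.0230). Without WT 24 months replicate 1, Aldh1a7 was lower in WT 24 months than in WT 6 months (-0.85, adjusted p = 0.00743). Its interaction of genotype and age also passed without that array (0.93, 0.0373).

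Aldh1l1, which removes formate units from folate as carbon dioxide, rose in all 3 groups relative to WT 6 months. It read 14.07, 13.89 and 13.91 in KO 24 months tumor, 13.95, 13.84 and 13.84 in KO 6 months, 13.86, 14.01 and 13.39 in WT 24 months, and 13.21, 13.17 and 13.24 in WT 6 months. Every WT 6 months array was below all others, with WT 24 months replicate 3 the nearest. The log2 differences were 0.75 (SE 0.14, adjusted p = 0.00349) for KO 24 months tumor, 0.67 (0.00731) for KO 6 months and 0.55 (0.0245) for WT 24 months. The last lost its call without WT 24 months replicate 1 or 2 or any of the WT 6 months arrays, with adjusted p from 0.0516 to 0.0783. That call was also lost by SAM, in a fit of the 2 groups alone and with the housekeeping centring. Aldh1l2, its mitochondrial counterpart, ranged over 4.02 to 4.68 and did not pass.

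Of the 7 aldehyde dehydrogenases of amino acid and amine breakdown, 4 rose in KO 24 months tumor against WT 6 months, where 10.7% of all genes rose. Of these, 3 also rose in KO 6 months, where 9% of all genes rose. In WT 24 months 0 of the 7 passed, where 6.22% of all genes rose and 7.07% fell. Aldh4a1, the second enzyme of proline breakdown, read 11.68, 11.53 and 11.60 in KO 24 months tumor, 11.78, 11.90 and 11.50 in KO 6 months, 11.34, 11.20 and 10.98 in WT 24 months, and 11.04, 11.13 and 11.10 in WT 6 months. Both groups labelled KO lay above both labelled WT with no overlap. The log2 differences from WT 6 months were 0.51 (adjusted p = 0.0133) in KO 24 months tumor and 0.63 (0.00490) in KO 6 months, and the first missed the threshold without KO 24 months tumor replicate 1 (0.0546).

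Aldh5a1, Aldh7a1 and Aldh9a1 are named because they passed, outside the rule for named members and after their values were seen. Aldh5a1, which breaks down GABA through succinate semialdehyde, read 10.13, 9.89 and 10.19 in KO 24 months tumor, 10.12, 10.17 and 10.07 in KO 6 months, 9.84, 9.64 and 8.72 in WT 24 months, and 9.20, 8.94 and 9.41 in WT 6 months. WT 24 months replicate 3 was below all other arrays, while the KO arrays were all above the WT arrays. Its log2 differences from WT 6 months were 0.89 (adjusted p = 0.0232) in KO 24 months tumor and 0.94 (0.0199) in KO 6 months. Aldh7a1, of lysine breakdown, differed from WT 6 months by 0.82 (0.00750) in KO 24 months tumor and 0.65 (0.0264) in KO 6 months. Aldh9a1, of carnitine synthesis, differed by 0.45 (0.0252) in KO 24 months tumor and by 0.30 (0.127) in KO 6 months. These calls were not firm. That of Aldh9a1 in KO 24 months tumor was lost without any 1 of the 6 arrays compared (adjusted p 0.0504 to 0.0844). In KO 6 months Aldh9a1 passed by SAM (0.00934) and without WT 24 months replicate 1 (0.0423). Aldh5a1 also passed in WT 24 months against WT 6 months without WT 24 months replicate 3 (0.56, 0.0285). Its calls in the KO groups were lost without KO 24 months tumor replicate 1 or 3 or WT 6 months replicate 1 or 2 in the tumor comparison (0.055 to 0.0872), and without any KO 6 months array or WT 6 months replicate 2 in the other (0.0536 to 0.0769). Aldh7a1 missed the threshold in KO 6 months without any KO 6 months array or WT 6 months replicate 2 (0.0611 to 0.0798), and its log2 difference without that WT 6 months array was 0.42.

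WT 6 months replicate 2 was the lowest array for Aldh7a1, at 11.59 beside 12.23 and 12.35 in the other two. Aldh6a1, of valine breakdown, Aldh16a1 and Aldh18a1, of proline synthesis, ranged over 12.02 to 12.38, 9.35 to 9.91 and 5.26 to 5.74 and did not pass.

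Of the 7 Adh members, 1 passed by limma over all arrays. Adh4, the class II alcohol dehydrogenase, read 11.75, 11.72 and 11.90 in KO 24 months tumor, 11.90, 11.17 and 11.67 in KO 6 months, 11.15, 10.23 and 10.89 in WT 24 months, and 11.17, 10.41 and 10.77 in WT 6 months. All KO 24 months tumor arrays were above all WT arrays, and 1 KO 6 months array, at 11.17, met the highest WT array. The log2 difference from WT 6 months was 1.01 (SE 0.26, adjusted p = 0.0180) in KO 24 months tumor and 0.80 (0.0550) in KO 6 months. The first was lost without KO 24 months tumor replicate 1 or 3 or WT 6 months replicate 2 (adjusted p 0.0509 to 0.0734). The second passed without KO 6 months replicate 2 (0.0373), WT 6 months replicate 1 (0.0355) or any WT 24 months array (0.0249 to 0.0499). It also passed by SAM without the study's fold cutoff of 3 (0.0268), and among genes above the median only (0.0412). Against WT 24 months it was 1.03 (0.101) in KO 24 months tumor and 0.83 (0.177) in KO 6 months.

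Adh1, the class I enzyme that carries most of the liver's ethanol oxidation, read 14.37, 14.39 and 14.38 in KO 24 months tumor, 14.39, 14.21 and 14.36 in KO 6 months, 14.30, 14.52 and 14.24 in WT 24 months, and 14.62, 14.59 and 14.62 in WT 6 months. WT 6 months was above all other arrays, but the log2 differences, -0.23 in KO 24 months tumor (adjusted p = 0.116), -0.29 in KO 6 months (0.0567) and -0.25 in WT 24 months (0.109), did not pass. By SAM, Adh1 was lower in KO 24 months tumor (adjusted p = 0.00226) and in KO 6 months (0.0130) than in WT 6 months. It also passed in KO 6 months without WT 24 months replicate 2 (0.0369) or 3 (0.0492) and with probe sets averaged (0.0407), and in WT 24 months without WT 24 months replicate 2 (0.0444). Adh5, which clears formaldehyde, ranged over 13.12 to 13.50.

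The remaining members of the alcohol dehydrogenase cluster, whose genes neighbour Adh1, Adh4 and Adh5 on chromosome 3, did not pass. All of them but Adh7 were dim. Adh6b read 5.03, 5.56 and 4.99 in KO 24 months tumor, 5.09, 4.96 and 5.24 in KO 6 months, 4.74, 4.54 and 5.02 in WT 24 months, and 5.91, 5.23 and 4.91 in WT 6 months. Adh6a read 4.21, 4.14 and 4.41 in KO 24 months tumor, 4.37, 4.27 and 3.60 in KO 6 months, 3.91, 3.96 and 3.89 in WT 24 months, and averaged 4.07 ± 0.06 in WT 6 months (SD, n = 3). For Adh6a the KO 24 months tumor arrays lay just above all WT arrays, while Adh6b overlapped between all groups. Adh7 is the retinol-active class IV enzyme and Adh6-ps1 the pseudogene. Adh7 read 6.47, 6.97 and 6.66 in KO 24 months tumor, 6.78, 6.84 and 6.84 in KO 6 months, 6.72, 7.14 and 6.91 in WT 24 months, and 7.09, 6.70 and 6.95 in WT 6 months. Adh6-ps1 read 4.02, 3.91 and 3.95 in KO 24 months tumor, 3.80, 3.65 and 3.80 in KO 6 months, 3.64, 3.59 and 3.73 in WT 24 months, and 3.96, 3.77 and 3.73 in WT 6 months. These Adh7 values overlapped between all groups, and for Adh6-ps1 the KO 24 months tumor arrays lay above those of KO 6 months and WT 24 months. On a second, dimmer Adh7 probe set the KO 24 months tumor arrays, at 4.42 to 4.73, lay below all WT arrays. Its log2 differences were -0.73 from WT 24 months and -0.79 from WT 6 months and were not tested.

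Among the aldo-keto reductases of the 1C and 1D subfamilies, Akr1c20 fell and Akr1d1 rose relative to WT 6 months. Akr1c20 read 11.44, 11.46 and 11.49 in KO 24 months tumor, 11.37, 11.04 and 11.50 in KO 6 months, 11.60, 11.23 and 11.27 in WT 24 months, and 12.81, 12.28 and 12.83 in WT 6 months. The WT 6 months arrays were the highest 3 of the 12. The log2 differences were -1.17 (SE 0.17, adjusted p = 0.000692) for KO 24 months tumor, -1.34 (0.000330) for KO 6 months and -1.27 (0.000526) for WT 24 months. A second, dimmer probe set of Akr1c20 differed from WT 6 months by -0.84, -1.37 and -1.99 in the same 3 groups.

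Akr1d1, the steroid 5-beta-reductase of bile acid synthesis, read 10.95, 10.88 and 10.90 in KO 24 months tumor, 11.02, 10.79 and 11.13 in KO 6 months, 10.40, 10.80 and 9.71 in WT 24 months, and 9.85, 8.73 and 10.00 in WT 6 months. Both KO groups were above all WT 6 months arrays. The log2 differences from WT 6 months were 1.38 (SE 0.32, adjusted p = 0.0111) in KO 24 months tumor and 1.45 (0.00935) in KO 6 months, and 0.77 (0.149) in WT 24 months, which passed without WT 24 months replicate 3 (1.07, 0.0361). Its second probe set differed by 0.70, 0.74 and 0.85 in these groups.

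Akr1c14 and Akr1c6 fell in WT 24 months against WT 6 months. By limma over all arrays they did not pass in the other pairs, and their interaction of genotype and age did not pass either (adjusted p = 0.249 and 0.0974). By SAM, Akr1c6 was also lower in KO 6 months (-0.21, 0.043) and KO 24 months tumor (-0.18, 0.0466) than in WT 6 months. Its interaction passed without WT 24 months replicate 1 (0.70, 0.0425). Akr1c6, a 17-beta-hydroxysteroid dehydrogenase, read 14.03, 14.08 and 14.16 in KO 24 months tumor, 14.10, 13.96 and 14.11 in KO 6 months, 13.93, 13.39 and 13.80 in WT 24 months, and 14.27, 14.21 and 14.31 in WT 6 months. Akr1c14, a 3-alpha-hydroxysteroid dehydrogenase, read 12.06, 12.29 and 12.36 in KO 24 months tumor, 12.21, 12.19 and 12.53 in KO 6 months, 12.25, 11.90 and 11.87 in WT 24 months, and 12.46, 12.45 and 12.72 in WT 6 months. For Akr1c6 all WT 24 months arrays were below and all WT 6 months arrays above the rest, and for Akr1c14 the lowest 2 arrays were of WT 24 months. The log2 differences of WT 24 months from WT 6 months were -0.56 (adjusted p = 0.0140) for Akr1c6 and -0.54 (0.0285) for Akr1c14. The call of Akr1c14 was lost without WT 24 months replicate 2 or 3 or WT 6 months replicate 1 or 3 (0.0502 to 0.0979). By SAM and in a fit of the 2 groups alone, the WT 24 months calls of both genes were lost.

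The other 1C members did not pass by limma over all arrays, and in 2 of them a single array lay far from the rest. All are encoded on chromosome 13 beside Akr1c20, except Akr1cl on chromosome 1. Akr1c18, the 20-alpha-hydroxysteroid dehydrogenase that breaks down progesterone, read 7.94 in WT 24 months replicate 2 beside 5.53 and 5.32 in the other WT 24 months arrays, and 5.43 to 6.74 elsewhere. Without that array it was lower than in WT 6 months in KO 24 months tumor (log2 difference -0.69, adjusted p = 0.0228), KO 6 months (-0.74, 0.0188) and WT 24 months (-0.91, 0.0175), where all arrays together gave -0.07 for WT 24 months (0.965). It also passed in both KO groups against WT 6 months by SAM (0.0219 and 0.0169) and in fits of the 2 groups alone (0.0470 and 0.0351). Akr1c19 read 10.75 in the same array, beside 9.01 and 8.46 in the other WT 24 months arrays, and its 12 values spanned 3.00 log2 units. Akr1c12 and Akr1c13, near-identical genes that the arrays may not tell apart, ranged over 10.54 to 10.99 and 10.82 to 11.72, Akr1c21 over 4.93 to 5.56 and Akr1cl over 4.08 to 4.71. Without WT 24 months replicate 1, Akr1c13 was lower in WT 24 months than in WT 6 months (-0.57, adjusted p = 0.0455). By SAM, Akr1c19 was higher in KO 6 months than in WT 6 months (1.04, adjusted p = 0.0429). Akr1c13 (-0.39, 0.0483) and Akr1c21 (-0.29, 0.0421) were by SAM lower in KO 24 months tumor than in WT 6 months.

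Of the 5 remaining reductases, of the 1A, 1B, 1E and 7A subfamilies, 0 passed over all arrays by limma, with 0 to 2 at an unadjusted p under 0.05 in each comparison. Akr1b8, an aldose reductase-like enzyme, read 7.10, 7.29 and 7.17 in KO 24 months tumor, 6.73, 6.57 and 6.87 in KO 6 months, 6.95, 7.62 and 6.56 in WT 24 months, and 6.23, 6.51 and 6.85 in WT 6 months. The KO 24 months tumor arrays were above all of KO 6 months and WT 6 months but not above WT 24 months, and the log2 difference from WT 6 months was 0.65 (SE 0.23, adjusted p = 0.0706). It passed by SAM (0.00918), in a fit of the 2 groups alone (0.0226) and without WT 24 months replicate 2 (0.0172), WT 24 months replicate 3 (0.0258) or WT 6 months replicate 3 (0.0463). Without WT 24 months replicate 3, Akr1b8 was also higher in WT 24 months than in WT 6 months (0.76, 0.0330). Akr7a5, which reduces succinate semialdehyde and aflatoxin aldehyde, read 12.50, 12.45 and 12.34 in KO 24 months tumor, 12.46, 12.35 and 12.35 in KO 6 months, 12.29, 12.09 and 11.81 in WT 24 months, and 12.21, 11.96 and 12.14 in WT 6 months. All KO arrays lay above all WT arrays for Akr7a5, and the log2 difference of 0.33 between KO 24 months tumor and WT 6 months did not pass (adjusted p = 0.0900). It passed by SAM (0.0180) and without WT 24 months replicate 3 (0.0415). By SAM, Akr7a5 was also higher in KO 6 months than in WT 6 months (0.28, 0.0326).

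Akr1b10 read 7.20 in WT 24 months replicate 3, the array with high Kupffer cell markers, beside 5.70 to 6.19 in the other 11 arrays. Akr1e1 ranged over 8.59 to 9.51 and Akr1a1, the aldehyde reductase used in ascorbate synthesis, over only 13.47 to 13.67. By SAM, Akr1e1 was higher in KO 6 months than in WT 6 months (0.34, adjusted p = 0.0437).

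**Figure D3:**
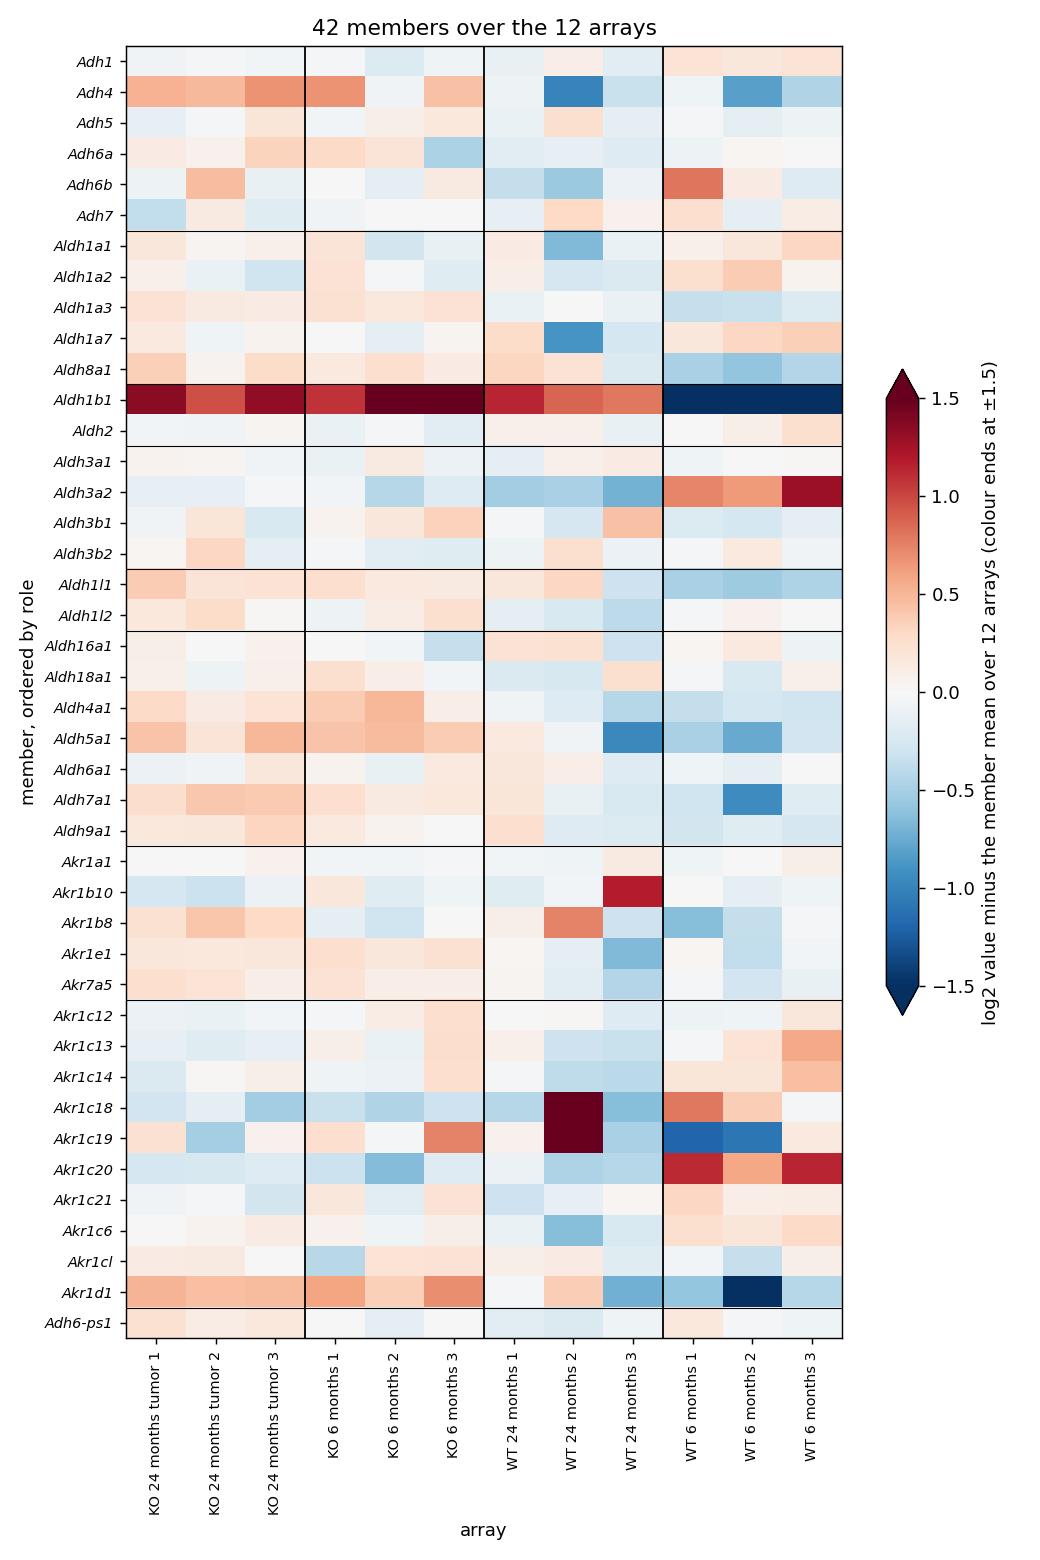
Log2 values of the 42 members in each array, each minus its mean over the 12 arrays, members ordered by role and arrays by group. The 3 WT 6 months columns are the most distinct for Aldh1b1, Aldh3a2 and Akr1c20, and WT 24 months replicates 2 and 3 hold single high cells for Akr1c18, Akr1c19 and Akr1b10.

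No member passed in a comparison without the arrays labelled WT 6 months. In KO 24 months tumor against WT 24 months, 0 of 42 members passed and 11 had an unadjusted p under 0.05, while 0.341% of all genes passed as higher and 0.231% as lower and 17.1% had an unadjusted p under 0.05. Their log2 differences ran from -0.63 to 1.03, and the largest was that of Adh4. In KO 24 months tumor against KO 6 months, 0 members passed and 1 had an unadjusted p under 0.05, beside 0.033% of all genes passing as higher, 0% as lower and 6.03% under the unadjusted threshold. In KO 6 months against WT 24 months, the only pair whose labels Iqgap2 does not go against, 0 members passed and 9 had an unadjusted p under 0.05, with 0.181% of all genes passing as higher, 0.159% as lower and 15.2% under the unadjusted threshold. By SAM the counts were 2, 0 and 0, and the 2 were Adh4 and Aldh3a2, both higher in KO 24 months tumor. The share of all genes that passed by SAM was not counted. Without WT 24 months replicate 1, Adh4 (log2 difference 1.23, adjusted p = 0.0320) and Aldh9a1 (0.42, 0.0457) passed in KO 24 months tumor against WT 24 months, and Aldh4a1 (0.64, 0.0361) passed in KO 6 months against WT 24 months.

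With the labels exchanged, calls move between comparisons. Then 10 members passed in KO 24 months tumor against KO 6 months. Of these, 2 were higher and 8 lower, beside 8.04% and 9% of all genes. In KO 24 months tumor against WT 24 months 7 passed, of which 4 were higher and 3 lower, beside 7.07% and 6.22% of all genes. KO 6 months against WT 6 months then held 0 members, beside 0% of all genes higher and 0.033% lower. WT 24 months against WT 6 months also held 0, beside 0.231% of all genes higher and 0.341% lower. In that reading Aldh1b1, Aldh1l1 and Aldh8a1 are lower, and Akr1c20 and Aldh3a2 higher, in the tumor than in each normal group.

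The interaction asks whether the change with age differed between genotypes, as the KO difference of 24 from 6 months minus the WT difference. The KO arrays at 24 months are of tumor, so that age and tumor cannot be told apart in KO. It passed for 3 members, of which 2 were higher and 1 lower, beside 2.59% and 2.24% of all genes. Aldh1b1 had an interaction of -5.28 (SE 0.37, adjusted p = 2.21e-05), Aldh3a2 of 1.59 (SE 0.23, 0.00222) and Akr1c20 of 1.43 (SE 0.24, 0.00566). In each, the WT groups as labelled differed and the KO groups as labelled did not pass. An exchange of the labels KO 24 months tumor and WT 6 months leaves the interaction the same but turns its reading. With the labels exchanged, KO 24 months tumor differed from KO 6 months by -5.56 in Aldh1b1, 1.11 in Aldh3a2 and 1.34 in Akr1c20. All 3 passed there, and the WT groups did not pass. The median interaction was 0.07 over the members and -0.0033 over all genes.

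Genes that work beside the members were counted from 5 lists. Of all genes, 10.7% were higher and 8.99% lower in KO 24 months tumor than in WT 6 months. These shares were 9% and 8.04% in KO 6 months, and 6.22% and 7.07% in WT 24 months. Of 12 measured short-chain retinol dehydrogenases, 3 rose and 2 fell in KO 24 months tumor and again in KO 6 months against WT 6 months, and 0 rose and 2 fell in WT 24 months. Rdh9 had log2 differences of -2.83, -2.88 and -3.15 in these comparisons, and Rdh11, a retinal reductase, of -1.97, -1.35 and -2.01. The genes of this list that rose are not named here. Of 13 genes of retinoid carriage and breakdown, 4 rose and 2 fell in KO 24 months tumor against WT 6 months, and Cyp26a1, which breaks down retinoic acid, also fell against WT 24 months (-2.01, adjusted p = 0.0469).

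Of 5 measured genes of ethanol and acetate handling outside the members, 1 passed, Acss2, which turns acetate into acetyl-CoA, at -1.16 (adjusted p = 0.0143) in KO 24 months tumor, -0.96 (0.0372) in KO 6 months and -1.86 (0.00130) in WT 24 months against WT 6 months. Cyp2e1, the ethanol-oxidizing cytochrome, averaged 14.64 ± 0.06 in KO 24 months tumor, 14.58 ± 0.06 in KO 6 months, 14.54 ± 0.08 in WT 24 months and 14.64 ± 0.01 in WT 6 months (SD, n = 3 each) and passed in none. Of 6 carbonyl reductases and polyol enzymes, 2 rose and 1 fell in each comparison with WT 6 months, with Cbr3 at -2.48, -2.39 and -2.15.

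Of 9 measured genes of bile acid and steroid reduction outside the members, 4 rose and 3 fell in KO 24 months tumor, 3 rose and 1 fell in KO 6 months, and 1 rose and 2 fell in WT 24 months, against WT 6 months. Baat, which joins bile acids to amino acids, had log2 differences of 1.39, 1.42 and 1.48. Cyp7a1, the rate-limiting enzyme of bile acid synthesis, had -3.67 (adjusted p = 0.00205) in KO 24 months tumor and -2.47 (0.0237) in WT 24 months. It did not pass as lower in KO 6 months.

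Markers of sinusoidal endothelium and stellate cells moved with the comparisons against WT 6 months. There 10.7% of all genes rose in KO 24 months tumor, 9% in KO 6 months and 6.22% in WT 24 months. Of 6 markers of sinusoidal endothelium, 5 rose in each of the 3 comparisons, and their array means were 8.25 to 8.40 in KO 24 months tumor, 8.33 to 8.76 in KO 6 months, 7.83 to 9.32 in WT 24 months and 6.67 to 7.46 in WT 6 months. Of 6 stellate cell markers, 3 rose in each, with array means of 7.64 to 7.78 in KO 24 months tumor, 7.89 to 8.36 in KO 6 months, 7.60 to 7.89 in WT 24 months and 6.41 to 7.17 in WT 6 months. Their part in the members' differences was not tested. Of 6 Kupffer cell markers, 0 passed in KO 24 months tumor and in KO 6 months against WT 6 months, and 1 rose in WT 24 months. Of 4 biliary markers, 2, 1 and 1 rose in these comparisons, and of 4 lymphocyte markers 1, 1 and 0. Biliary markers averaged 5.33 to 5.89 over all arrays. Lymphocyte markers averaged 7.20 in WT 24 months replicate 3 and 5.63 to 6.05 in the other arrays.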

How the data were processed

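Total liver RNA from each of 12 male mice was measured on its own Affymetrix mouse expression array. The deposited values are log2 intensities made by the authors with RMA in the simpleaffy package of R. This method subtracts background, forces the same distribution on every array and combines the probes of a set, so that a change shared by most genes is removed. All 45101 probe sets are in the file, without detection calls, so that dim values cannot be called absent. The number of arrays limits the precision, and the p-values measure the spread between these mice. The study's methods name SAM at a fold of 3 and an FDR of 0.05.

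Gene names of probe sets came from the platform annotation: 34958 name 1 gene, 932 several and 9211 none that is listed, and the last 2 kinds were left out. All 42 members matched the RefSeq gene table. One log2 model with 4 group means was fitted over the 12 arrays and all 18194 genes with limma 3.58.1 in R 4.3.3 and Benjamini-Hochberg adjustment, checked on simulated data. Members with array values in the text are Aldh1b1 and Akr1c20 and, per class, up to 6 members with the smallest adjusted p. Of these families, 1 gene in the study's lists is not analysed here. Members, lists and tests were chosen with earlier results of these data known.

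Alternatives were SAM (written out over the 20 arrangements of 3 arrays against 3), a fit of the 2 groups only, other ways to choose a probe set, a filter on dim genes, 2 centrings, folds of 2 and 3, a trended and robust prior, a replicate block, exchanged labels, and each array left out. No array had the values of another. Figures were drawn with matplotlib 3.10.9. Promoters are from RefSeq, build GRCm38.p6.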

Additional observations from a re-analysis of the deposited data

Results flagged for a closer look

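The difference of the age effect between genotypes, tested as an interaction with limma, passed the threshold for 3 members. The later KO sample was tumor. Aldh1b1 had -5.28, Aldh3a2 1.59 and Akr1c20 1.43 on the log2 scale. In all 3 the arrays labelled WT 6 months lay apart from the other groups, and the cause was not tested. No test for single outlying arrays was run in the groups of 3, and each array was left out in turn.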

How the results depend on the processing

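The counts of members rest on labels that Iqgap2 goes against, on 3 arrays a group and on values without detection calls. Exchanging the labels gave 0 members for KO 6 months against WT 6 months, 7 for KO 24 months tumor against WT 24 months, 10 for KO 24 months tumor against KO 6 months and 0 for WT 24 months against WT 6 months. SAM gave 20, 2 and 3 members for KO 6 months against WT 6 months, KO 24 months tumor against WT 24 months and WT 24 months against WT 6 months, and 19 for KO 24 months tumor against WT 6 months. The shares of all genes under the exchange are given above, and those under SAM were not counted. Arrays centred on 4 housekeeping genes gave 4 (2 higher, 2 lower) for KO 6 months against WT 6 months, 5 (3 higher, 2 lower) for KO 24 months tumor against WT 6 months, and 1 higher and 4 lower for WT 24 months against WT 6 months; that centring moved the median of all genes to -0.08, -0.06 and -0.14 in KO 24 months tumor, KO 6 months and WT 24 months against WT 6 months. A fit of the 2 groups alone gave 3 for WT 24 months against WT 6 months. A fold of at least 2 left 4 members in KO 6 months against WT 6 months, 3 in WT 24 months against WT 6 months and 4 in KO 24 months tumor against WT 6 months, and a fold of at least 3 left 1 in each, Aldh1b1. With the replicate block KO 24 months tumor against WT 24 months held 1 member, Adh4 (adjusted p = 0.0417), which also passed in KO 6 months against WT 6 months (0.00856). Over all genes, deviations of same-numbered arrays correlated at -0.16 to 0.19, and 2 of 18 pairs exceeded 0.1. Correlations over all genes cannot tell whether the replicate numbers pair the arrays for a single gene. Adh4 was highest in replicate 1 and lowest in replicate 2 in KO 6 months, WT 24 months and WT 6 months. In KO 24 months tumor it was highest in replicate 3 and lowest in replicate 2.

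Leaving out 1 array gave 8 to 14 members in KO 24 months tumor against WT 6 months, 8 to 13 in KO 6 months against WT 6 months, 5 to 9 in WT 24 months against WT 6 months, 0 to 2 members in KO 24 months tumor against WT 24 months, 0 to 1 in KO 6 months against WT 24 months and 3 to 5 in the interaction, the high ends of the last 3 without WT 24 months replicate 1 and, for the interaction, also without replicate 3. The 32 calls of single members kept their direction in all 664 alternative values, which leave out the exchange of labels, and 602 also kept their side of the threshold. Of the 62 that did not, 31 came from leaving out an array, 15 from the housekeeping centring, 6 from averaging probe sets by gene, 5 from the fit of the 2 groups, 4 from SAM and 1 from centring on the median. With the labels exchanged the 12 calls of KO 24 months tumor against WT 6 months became 2 higher and 10 lower. The calls of Aldh1b1, Aldh3a2 and Akr1c20 passed in each of the 664 that concern them. No value was obtained for Aldh1a3 among genes above the median, since it is dimmer.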
